A study of Rattus norvegicus with 20 samples.

Results

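The growth hormone, STAT5 and IGF1 axis was examined in the mesenteric arteries of ovariectomised rats given 1 of 5 estrogenic compounds or vehicle. Its members were taken as all array probes whose only gene symbol in the platform's probe annotation is Cish, Bcl6, Igf1, Socs2, Socs3, Stat5a, Stat5b, Ghr, Igf1r or Igfbp3. This gave 18 of the 35129 probes, for 9 of the 10 genes and of 12199 genes named on the array; Stat5b is named only, since no probe carries its symbol alone. Of these 18 probes, 15 probes of 8 genes passed the filter on dim signal and entered the tests, while the Socs2 probe, 1 of 3 Stat5a probes and 1 of 3 Ghr probes did not. The genes were chosen on changes from vehicle measured with these same arrays, that of Cish among them, so every comparison with vehicle below describes the members and carries no test. Such a change is given with the standard error (SE) of the fit, and whether it was called, with no p-value.

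Growth hormone binds its receptor, GHR, and the kinase JAK2 attached to the receptor phosphorylates the transcription factors STAT5A and STAT5B. STAT5 dimers bind DNA at short palindromes and raise transcription of Igf1, which encodes a secreted growth factor, and of Cish, Socs2 and Socs3, whose products bind the receptor complex and damp the signal. Bcl6 encodes a transcriptional repressor that recognises similar DNA sites, and its transcript is known to be lowered by growth hormone in liver. In the artery wall, IGF1 acts on smooth muscle and endothelial cells through its receptor IGF1R, and IGFBP3 is a carrier protein that holds IGF1 in the circulation and in tissue. Oral estrogens are known to reduce the IGF1 that the liver releases in response to growth hormone.

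All rats were female Sprague Dawley. Ovaries were removed at 4 weeks of age, recovery took 2 weeks, gavage dosing was daily over 3 weeks, and arteries were collected at 9 weeks of age. The vehicle group (n = 4) received 20% 2-hydroxypropyl-β-cyclodextrin, in which the compounds were also given. Ethinyl estradiol, estradiol benzoate and equilin (n = 3 each) were given at 0.15 mg/kg, and the selective estrogen receptor modulators (SERMs) tamoxifen (n = 4) and raloxifene (n = 3) at 3 mg/kg. Each of the 20 single-colour CodeLink arrays held RNA of 1 rat, and no intact rat was included. Levels are given as centred log2 intensity: the log2 of the deposited intensity plus an offset of 0.103, minus the median of the array, so that 0 is the middle probe of an array. A probe was called where limma's p, adjusted by the Benjamini-Hochberg method over all 24562 tested probes, was under 0.05. Probes differ in how strongly they bind, so levels are compared between samples and not between probes. Statements that treated rats lay above or below the vehicle rats describe those rats only. The share of all probes that separate in this way is not given. In tissue RNA, fewer cells of a type and less RNA per cell cannot be told apart.

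The arrays fell into 2 sets of 10 that the labels do not name. Vehicle 1 and all 9 estrogen arrays had deposited medians of at least 1.0408, and vehicle 2 to 4 with the 7 SERM arrays had at most 1.015. A group of 384 regularly spaced probes without gene names separated the same sets, with array medians of at least 0.69 in the first and at most -1.38 in the second. Within these sets the estrogens can be set only against vehicle 1, and the SERMs against vehicle 2 to 4, and such values are given below. Raloxifene 3 was unlike the others: it correlated with them at 0.889 on average, and each of the remaining arrays at 0.944 to 0.970. All 7 smooth muscle markers and 5 of 6 endothelial markers were measured, none with a deposited intensity at or below 0. Endothelial mean levels per array were 5.33 to 5.58 in vehicle, 5.18 to 5.37 in ethinyl estradiol and 4.61 to 5.50 in estradiol benzoate. They were 5.10 to 5.33 in equilin, 5.16 to 5.57 in tamoxifen and 4.91 to 5.16 in raloxifene. Smooth muscle means were 3.98 to 4.34 in vehicle, 4.17 to 4.48 in ethinyl estradiol, 3.68 to 3.73 in estradiol benzoate, 3.61 to 3.73 in equilin, 2.93 to 4.09 in tamoxifen and 4.14 to 4.31 in raloxifene. Of the 7, 1 was called higher with ethinyl estradiol, 1 lower with estradiol benzoate and 1 lower with equilin. Of all probes, 1.2%, 0.7% and 3.69% were called there. Between compounds, 2 of 7 were called higher with ethinyl estradiol than with estradiol benzoate (0.281% of all probes). Against equilin, 1 of 7 was called higher with ethinyl estradiol (0.175%), and 0 were called in the other pairs. Pancreatic acinar markers (5 of 6 measured) varied most between rats, from -0.76 to 4.03 in vehicle, -0.69 to 6.53 in ethinyl estradiol, -1.15 to 0.96 in estradiol benzoate, -0.18 to 0.12 in equilin, 1.58 to 4.23 in tamoxifen and -1.20 to 1.85 in raloxifene, and 0 of them was called against vehicle or between compounds. Adipocyte markers were at 4.25 to 5.15 and lymphocyte markers at 0.01 to 1.65 over all arrays. Macrophage markers were at 3.40 to 3.98 in vehicle, 3.08 to 3.62 in ethinyl estradiol and 3.33 to 3.42 in estradiol benzoate. They were at 3.14 to 3.26 in equilin, 3.64 to 4.04 in tamoxifen and 3.51 to 3.91 in raloxifene. Of 4 tested macrophage markers, 1 was called higher with raloxifene, where 2.04% of all probes were called. The part of these markers in the values below was not tested.

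Cish is shown first by sequence, because its promoter is a textbook STAT5 target and it is the member with the most STAT5-type palindromes in the window searched. The 300 bases below run from 250 bases before to 50 bases after the gene start, at chr8:116850719-116851018 on the plus strand of the rat build GRCr8, from RefSeq. Capitals mark TTCNNNGAA, the core of the site that STAT5 dimers bind.
Cish promoter: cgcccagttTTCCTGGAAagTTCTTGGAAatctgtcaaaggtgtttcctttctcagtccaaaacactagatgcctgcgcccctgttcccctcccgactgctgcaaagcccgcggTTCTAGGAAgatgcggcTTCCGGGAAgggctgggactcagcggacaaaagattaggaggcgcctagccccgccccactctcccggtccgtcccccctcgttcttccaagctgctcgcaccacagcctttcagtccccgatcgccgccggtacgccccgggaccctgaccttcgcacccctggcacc
The letters searched read the same on both strands, and the 4 matches do not overlap. They are TTCCTGGAA at bases -241 to -233 from the start, TTCTTGGAA at -230 to -222, TTCTAGGAA at -136 to -128 and TTCCGGGAA at -119 to -111. Of 33469 rat promoters of this length, 2970 (8.87%) held at least 1 match and 2 (0.00598%) held at least 4. RefSeq promoters were found for 9 of the 10 members, and the other 8 held 0 matches. The estrogen response element palindrome was in 9 promoters (0.0269%) and in 0 of the 9 members. These matches describe letters in a fixed window and are not evidence of binding; the arrays carry no measurement at the promoter.

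Cish, an inhibitor in the SOCS family, was the member that stood lowest against vehicle after several compounds, but this was seen with only 1 of its 3 probes. With probe 39098, vehicle rats were at 2.24, 2.43, 3.45 and 3.07. Ethinyl estradiol rats were at 1.15, 0.71 and 0.68, and equilin rats at 0.37, 0.09 and 0.98. Tamoxifen rats were at 0.88, 1.27, 0.92 and 0.27. All 10 of these treated rats lay below all 4 vehicle rats. Estradiol benzoate rats were at 2.41, 0.42 and 2.15, so that 1 of the 3 was low and another lay within the vehicle range. Raloxifene rats were at 2.91, 2.04 and 1.74, overlapping vehicle.

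Relative to vehicle, the change in Cish with probe 39098 was -2.32 ± 0.42 (log2, SE of the fit) with equilin, a 4.99-fold lower level. It was -1.96 ± 0.39 with tamoxifen and -1.95 ± 0.42 with ethinyl estradiol, 3.90-fold and 3.86-fold lower. With estradiol benzoate it was -1.14 ± 0.42 and with raloxifene -0.57 ± 0.42. The order of the group means was vehicle (2.80 ± 0.56, SD), raloxifene (2.23 ± 0.60), estradiol benzoate (1.66 ± 1.08), ethinyl estradiol (0.85 ± 0.26), tamoxifen (0.83 ± 0.42) and equilin (0.48 ± 0.45). Neighbours in this order differed by less than the larger of their SDs. In a fit blocked on the array set, where vehicle 1 is the only control of the estrogens, the changes were -1.76 ± 0.63 for equilin, -1.39 ± 0.63 for ethinyl estradiol and -0.59 ± 0.63 for estradiol benzoate, and -2.15 ± 0.42 for tamoxifen and -0.75 ± 0.45 for raloxifene; none of the 5 was then called.

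The other Cish probes did not show this pattern, and they were dimmer. By mean level, probe 39098 was at percentile 68.5 of all probes, probe 249020 at 47.2 and probe 172006 at 38.6. The offset of 0.103 understates changes of dim genes. Deposited intensities in vehicle rats were 0.58 to 1.19 on probe 249020 and 0.349 to 0.459 on probe 172006. The part of dimness in the difference between the probes was not tested. Probe 249020 was at -0.08, 0.23, -0.05 and -0.70 in vehicle rats and lay between -0.67 and 0.28 in all treated rats, with changes of -0.07 for ethinyl estradiol, 0.00 for estradiol benzoate, 0.15 for equilin, -0.38 for tamoxifen and -0.02 for raloxifene. Probe 172006 was at -1.29, -1.29, -0.99 and -1.0 in vehicle rats, and its changes were all above 0, from 0.07 with estradiol benzoate to 0.72 with equilin, where 1 rat reached 0.13. Without raloxifene 3 the equilin change was called, at 0.72 ± 0.20, the opposite direction to probe 39098. Its raloxifene value of 0.64 rested on raloxifene 3, at 0.40 against -0.94 and -0.95 in the other raloxifene rats; without that array it was 0.20. Probes 249020 and 172006 are annotated to the same sequence record and probe 39098 to a different one. Probe sequences were not available, so where each probe lies on the Cish transcript could not be checked. Over the 20 arrays, probe 39098 correlated at 0.20 with probe 249020 and at -0.20 with probe 172006, while the latter pair correlated at 0.48. These correlations describe arrays that share treatments and array sets. The sign of the Cish change from vehicle differed between the probes, so no single direction is given for the gene.

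**Figure D1:**
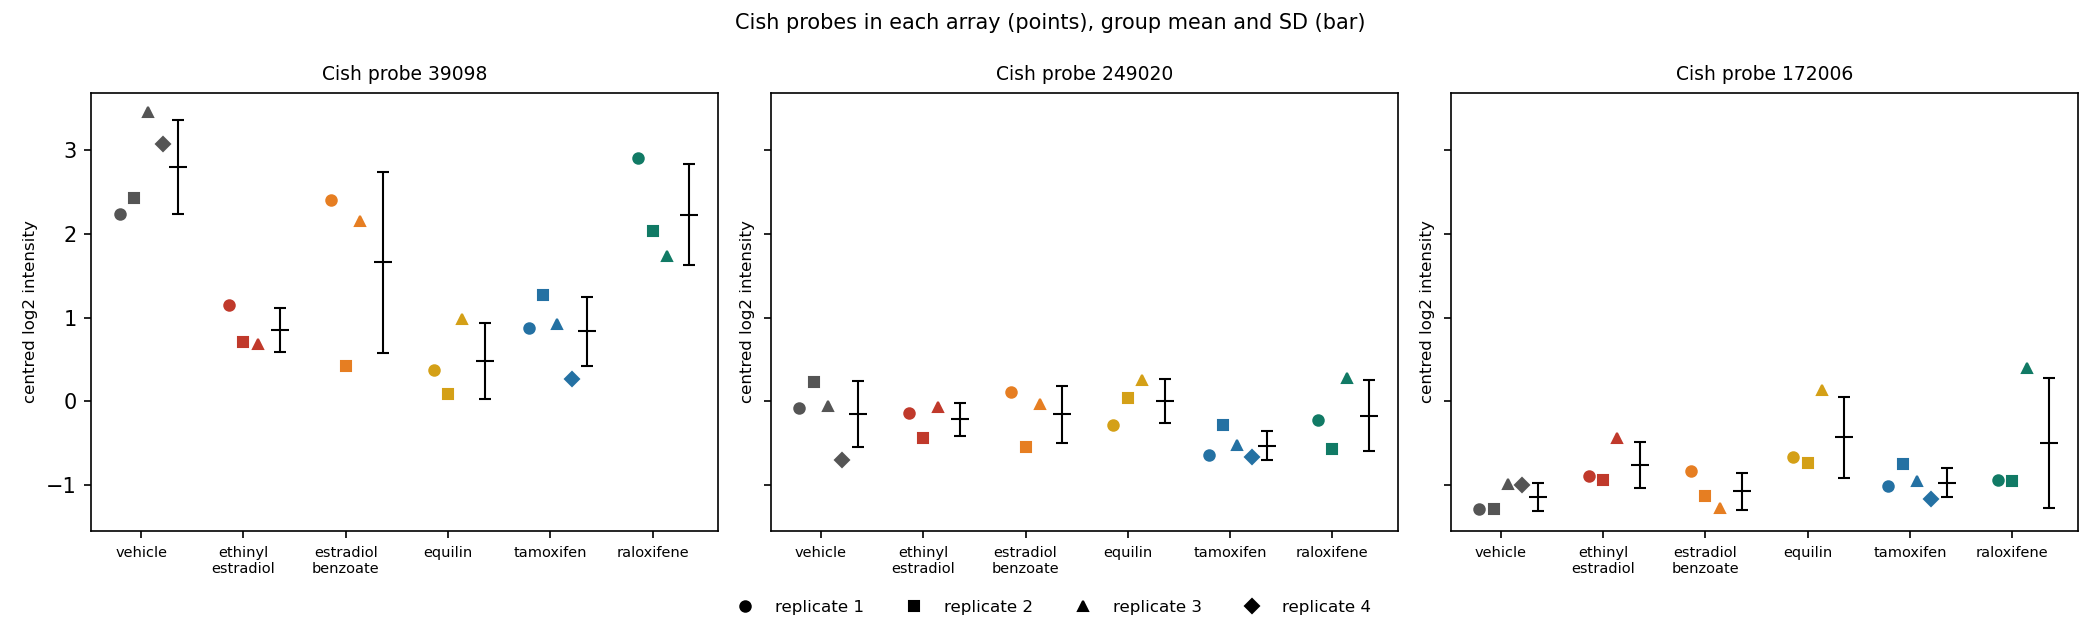
Centred log2 intensity of the 3 Cish probes in each of the 20 arrays, by group (points), with group mean and SD (bars); 0 is the middle probe of an array. Probe 39098 was at 2.24 to 3.45 in vehicle rats and at most 1.27 in every ethinyl estradiol, equilin and tamoxifen rat, whereas probes 249020 and 172006 showed no such drop.

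Igf1, the growth factor induced by growth hormone, had 1 probe, at the 99.6th percentile of all probes by mean level. Vehicle rats were at 7.03, 7.40, 7.42 and 7.33, which are deposited intensities of 150, 186, 190 and 178. Tamoxifen rats were at 5.78, 5.49, 6.35 and 6.02, and ethinyl estradiol rats at 5.38, 6.57 and 6.13. Raloxifene rats were at 6.17, 5.94 and 3.07. All of these treated rats lay below the vehicle range, and raloxifene 3 lay far below every other array. Equilin rats were at 6.77, 5.70 and 7.02, just below the lowest vehicle rat at the top. Estradiol benzoate rats were at 7.53, 6.92 and 6.98, spanning the vehicle range.

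The change in Igf1 from vehicle was -2.23 ± 0.53 with raloxifene, -1.38 ± 0.49 with tamoxifen, -1.27 ± 0.53 with ethinyl estradiol, -0.80 ± 0.53 with equilin and -0.15 ± 0.53 with estradiol benzoate. Raloxifene 3 set both the size of the raloxifene value and the spread of the fit. Without it the raloxifene change was -1.24 ± 0.34 and was no longer called, while ethinyl estradiol (-1.27 ± 0.30) and tamoxifen (-1.38 ± 0.28) became called. The order of the group means was vehicle (7.29 ± 0.18, SD), estradiol benzoate (7.15 ± 0.34), equilin (6.50 ± 0.70), ethinyl estradiol (6.03 ± 0.60), tamoxifen (5.91 ± 0.36) and raloxifene (5.06 ± 1.72), each neighbour apart by less than the larger SD. Against vehicle 1 alone, with the array set as a block, ethinyl estradiol was at -1.01 ± 0.83, equilin at -0.54 ± 0.83 and estradiol benzoate at 0.11 ± 0.83; against vehicle 2 to 4, tamoxifen was at -1.47 ± 0.55 and raloxifene at -2.32 ± 0.58, and none was called.

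The groups with lower Igf1 also had lower mean levels of fibroblast markers. The mean level of the 5 markers, all measured and none at or below 0, was 4.50 to 4.82 in vehicle and 4.51 to 4.55 in estradiol benzoate. It was 3.75 to 4.16 in ethinyl estradiol, 4.02 to 4.29 in equilin, 4.07 to 4.26 in tamoxifen and 3.51 to 4.34 in raloxifene. Of the 5 markers, 2 were called lower with ethinyl estradiol, 0 with estradiol benzoate and 1 each with equilin, tamoxifen and raloxifene, where 1.2%, 0.7%, 3.69%, 0.224% and 2.04% of all probes were called in either direction. The marker with the largest change was Col1a1, the collagen I alpha 1 chain, which fell by 1.53 ± 0.26 with ethinyl estradiol (limma adjusted p = 0.00745; 0.00188 to 0.144 over 32 other settings), by 1.64 ± 0.24 with tamoxifen (limma adjusted p = 0.00471; 0.000124 to 0.0276) and by 1.62 ± 0.26 with raloxifene (limma adjusted p = 0.0164; 0.00469 to 0.390). The part of these markers in the Igf1 values was not tested. Mast cell markers, 5 of 5 measured, were at 1.02 to 1.25 in vehicle, 0.33 to 0.54 in ethinyl estradiol, 0.35 to 0.60 in equilin, 0.65 to 0.88 in estradiol benzoate, 0.82 to 0.90 in tamoxifen and 0.88 to 1.17 in raloxifene, lowest in the ethinyl estradiol and equilin groups, as Cish probe 39098 was among the estrogens. Of the 5 mast cell markers, 3 were called lower with ethinyl estradiol and 3 with equilin, where 1.2% and 3.69% of all probes were called. With each of the other compounds 0 were called. Tamoxifen rats, whose mast cell levels lay nearer to vehicle, had a Cish probe 39098 mean of 0.83, against 0.85 with ethinyl estradiol. The part of the mast cell markers in the Cish values was not tested.

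Bcl6, the repressor, had a group mean above vehicle on both of its probes with every compound. Only with estradiol benzoate and tamoxifen did all rats lie above every vehicle rat on both probes. With probe 101051, vehicle rats were at 0.74, 0.90, 0.88 and 1.13. Ethinyl estradiol rats were at 1.72, 1.71 and 1.39, estradiol benzoate rats at 1.86, 1.41 and 1.87, and equilin rats at 1.73, 1.51 and 1.26. Tamoxifen rats were at 1.77, 1.73, 1.42 and 2.40. All 13 of these rats lay above all 4 vehicle rats, while raloxifene rats, at 0.87, 1.54 and 1.23, overlapped them. The changes were 0.70 ± 0.22 with ethinyl estradiol, 0.80 ± 0.22 with estradiol benzoate, 0.59 ± 0.22 with equilin, 0.92 ± 0.20 with tamoxifen and 0.30 ± 0.22 with raloxifene.

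Bcl6 probe 88065 gave another order of the compounds. Vehicle rats were at -0.24, 0.07, -0.40 and 0.80. Tamoxifen rats were at 1.42, 1.52, 1.95 and 2.35, raloxifene rats at 1.26, 1.37 and 0.91, and estradiol benzoate rats at 0.96, 1.23 and 0.93, all above vehicle. Ethinyl estradiol rats were at 0.80, 0.25 and 0.32 and equilin rats at 0.70, 0.26 and -0.19, within or at the edge of the vehicle range. The changes were 1.75 ± 0.26 with tamoxifen (3.37-fold higher), 1.12 ± 0.28 with raloxifene, 0.98 ± 0.28 with estradiol benzoate, 0.40 ± 0.28 with ethinyl estradiol and 0.20 ± 0.28 with equilin. The tamoxifen value was still called with the array set as a block (1.65 ± 0.29) and without any 1 array (1.57 to 2.00), but not in a fit of only these groups (1.75 ± 0.29). The Bcl6 probes correlated at 0.61 over the 20 arrays and at 0.47 within groups, and they agree in sign for every compound. They differ for raloxifene, whose values were 1.12 on one and 0.30 on the other.

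**Figure D2:**
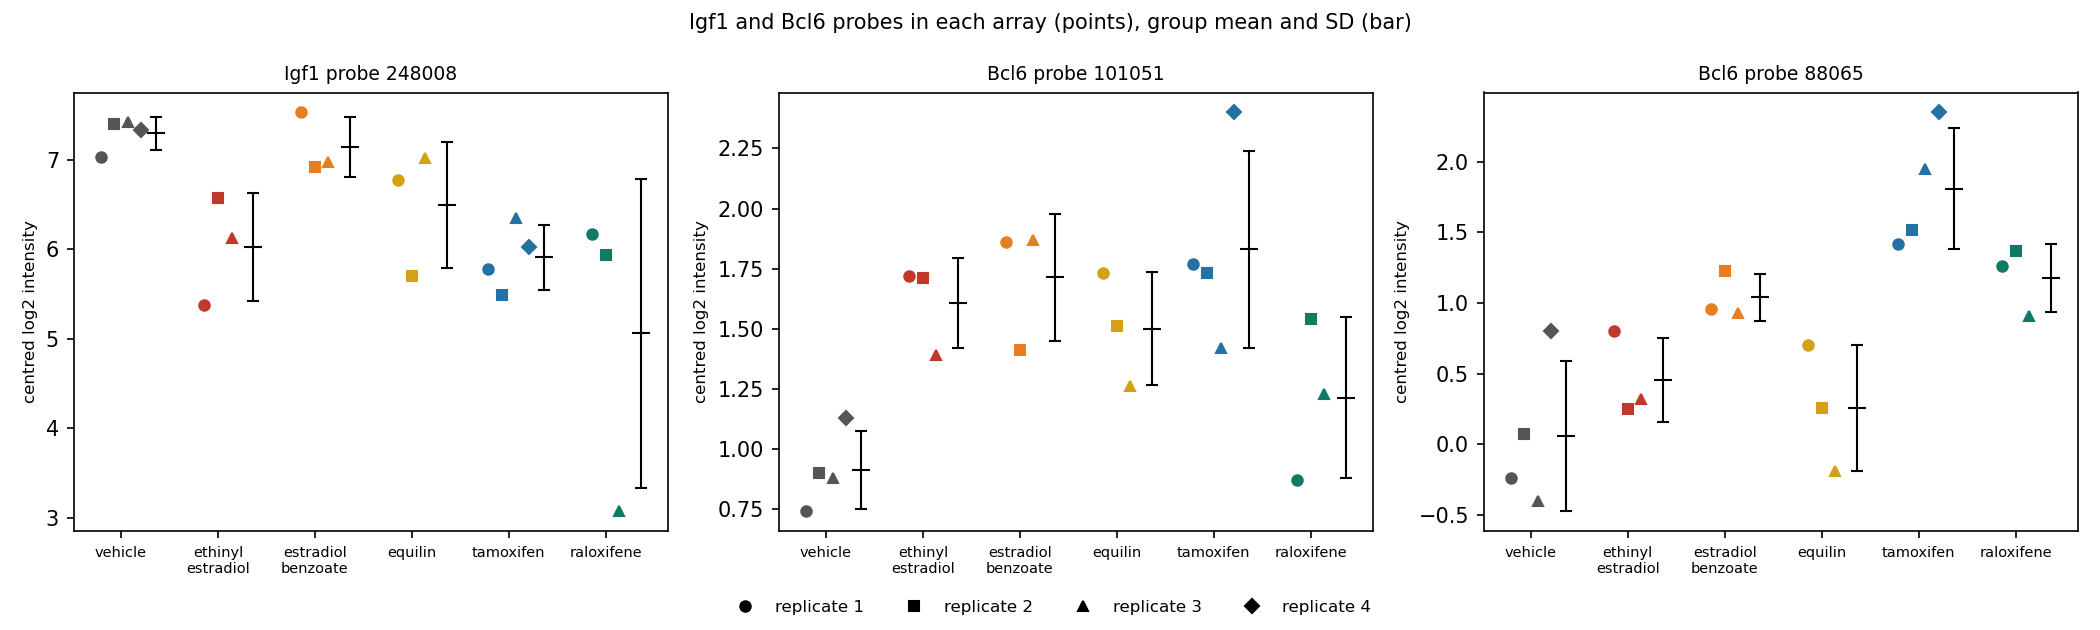
Centred log2 intensity of the Igf1 probe and the 2 Bcl6 probes in each array (points), by group, with group mean and SD (bars). Igf1 was at 7.03 to 7.42 in vehicle rats and at most 6.57 in ethinyl estradiol, tamoxifen and raloxifene rats, with raloxifene 3 at 3.07; Bcl6 probe 88065 was at 1.42 to 2.35 in tamoxifen rats against -0.40 to 0.80 in vehicle rats.

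No Ghr probe, for the growth hormone receptor, was called with any compound. Probe 211020 was at 3.72, 3.26, 3.56 and 2.96 in vehicle rats and between 2.97 and 3.86 in all treated rats except raloxifene 3, at 0.36. The raloxifene change was -1.26 ± 0.43, or -0.38 ± 0.20 without that array. Probe 74035 was at 0.97, 1.10, 0.58 and 0.44 in vehicle rats and at 1.62, 2.32, 0.75 and 1.28 in tamoxifen rats, a change of 0.72 ± 0.27 with overlapping groups. The third probe, 303003, was too dim to be tested. The tested Ghr probes correlated at -0.08 over the arrays although annotated to the same transcript record.

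No probe of Stat5a, which encodes the transcription factor, was called with any compound. Probe 168107 was at 1.34, 1.52, 1.36 and 1.03 in vehicle rats and 1.67, 1.86 and 1.64 in equilin rats, which lay above vehicle, with a change of 0.41 ± 0.20. Raloxifene rats were at 1.39, 1.42 and 2.35, the last again raloxifene 3, a change of 0.41 ± 0.20 or of 0.09 without that array. Probe 16002 was at -1.97, -0.71, -0.49 and -0.78 in vehicle rats and at -0.24, 0.10, -0.61 and -0.25 in tamoxifen rats, a change of 0.74 ± 0.25 in which vehicle 1 is the low array. Probe 36092 was dim, with 2 arrays at or below 0 intensity. The first and second of these probes correlated at -0.07. Of the inhibitors beside Cish, Socs3 (probe 136085) was dim, with all arrays between -1.65 and -0.24 and changes of -0.19 to 0.19, and Socs2 (probe 279101) was at -3.49 to -1.26, below the filter.

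No probe of Igf1r, the IGF1 receptor, was called with any compound. On probe 25044 vehicle rats were at 0.43, 0.23, 0.47 and 1.31, and the changes ran from -0.53 ± 0.31 with equilin to 0.50 ± 0.28 with tamoxifen. On probe 129061 they ran from -0.37 ± 0.27 with raloxifene to 0.15 ± 0.27 with ethinyl estradiol. Raloxifene 3 was the lowest array on both Igf1r probes, at -0.31 and -0.70. The carrier gene Igfbp3 gave opposite signs on its probes for both SERMs, although both probes are annotated to the same transcript record. Raloxifene rats were at 4.64, 4.06 and 5.12 on probe 68016 against 4.18, 4.33, 3.94 and 3.81 in vehicle, and at 3.77, 3.18 and 2.98 on probe 293006 against 4.70, 4.76, 4.75 and 3.40. The raloxifene changes were 0.54 ± 0.23 and -1.09 ± 0.35, and the tamoxifen changes 0.34 ± 0.21 and -0.25 ± 0.33. Raloxifene 3 was the highest of all arrays on probe 68016, at 5.12, and the lowest on probe 293006, at 2.98.

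**Figure D3:**
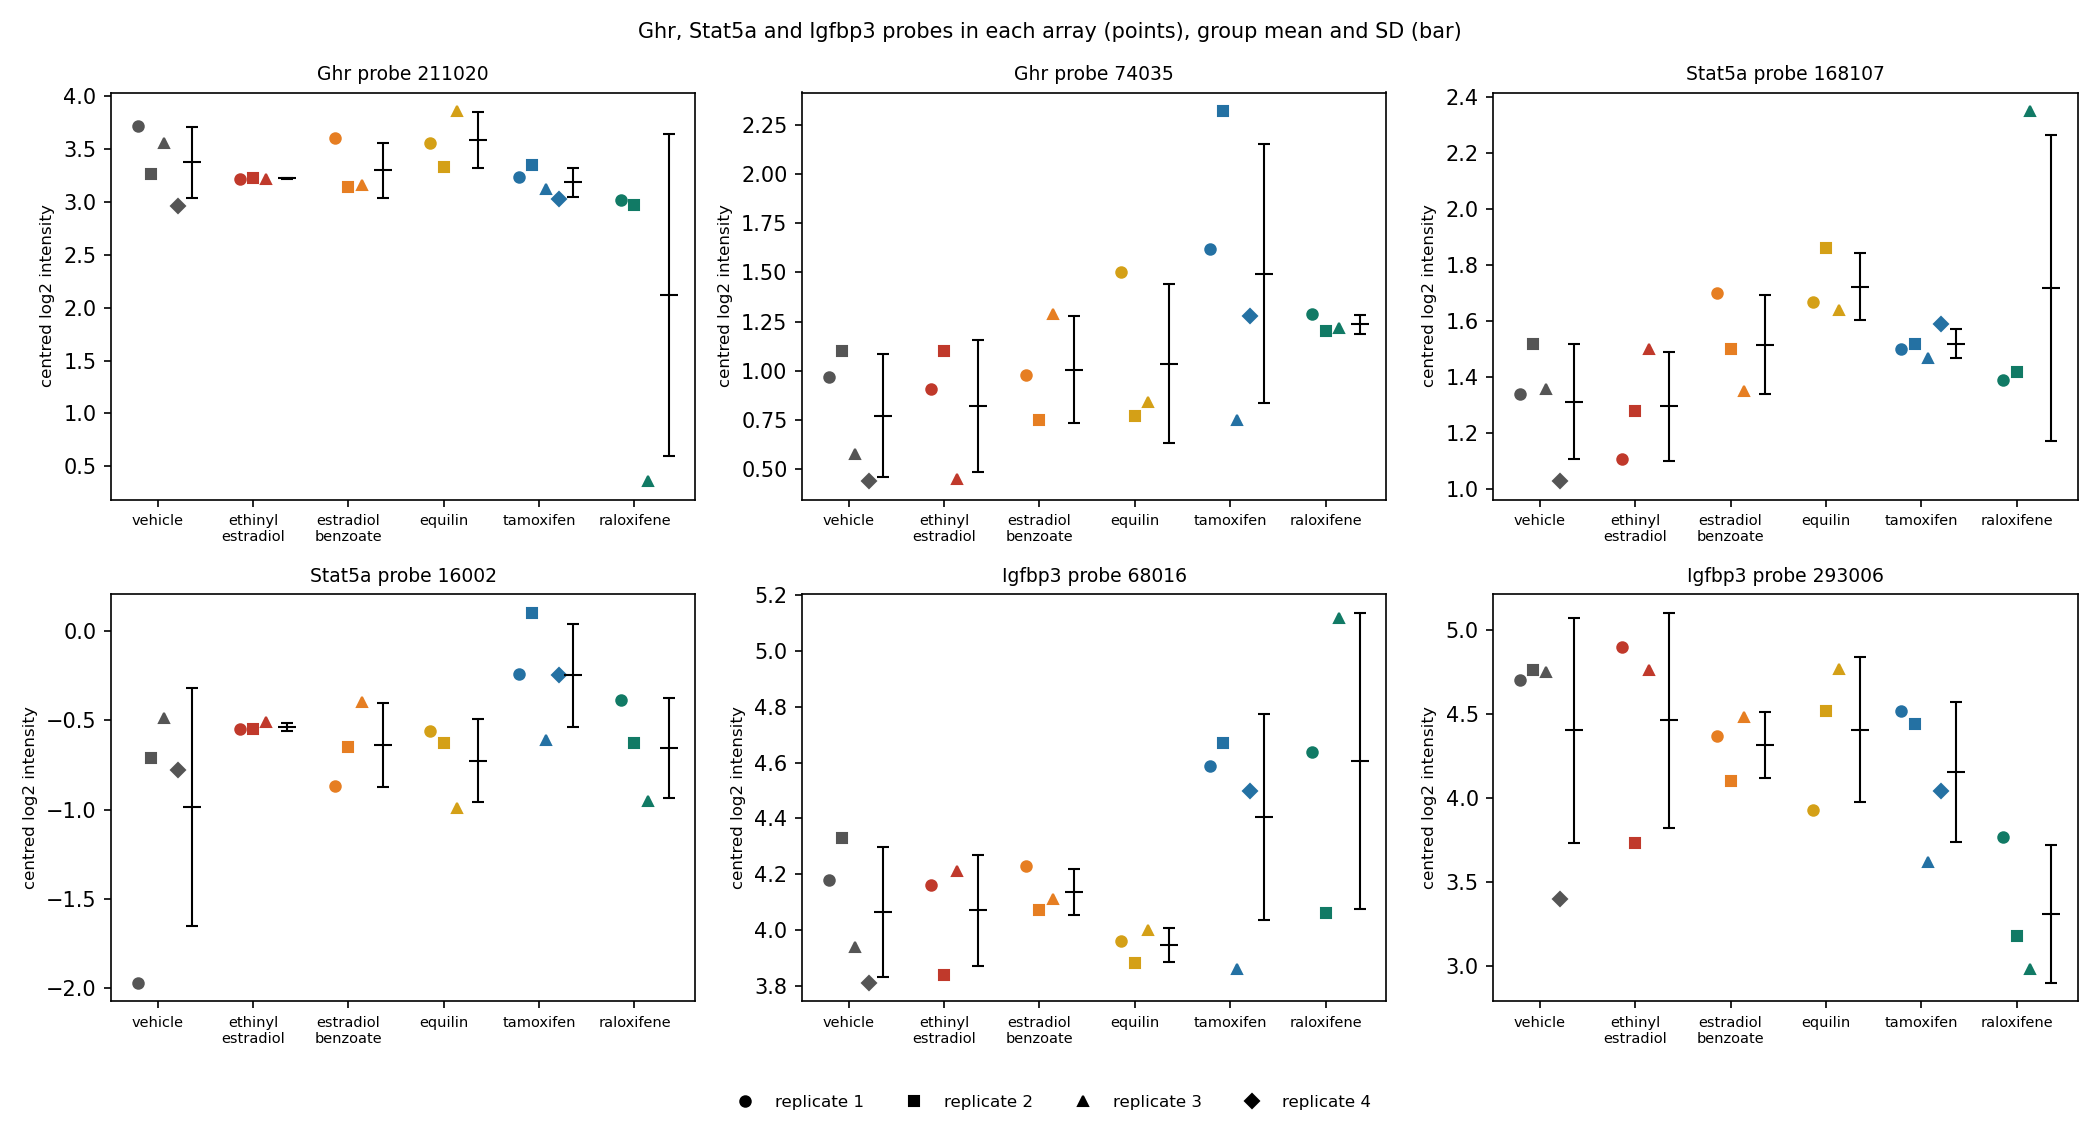
Centred log2 intensity of the tested Ghr, Stat5a and Igfbp3 probes in each array (points), by group, with group mean and SD (bars). Ghr probe 211020 lay between 2.96 and 3.86 in every array but raloxifene 3, at 0.36, and the raloxifene changes of the Igfbp3 probes were 0.54 and -1.09.

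Among the 15 tested member probes, 1 was called with ethinyl estradiol, where 1.2% of all tested probes were called in either direction, and 0 with estradiol benzoate (0.7%). With equilin 1 was called (3.69%), with tamoxifen 2 (0.224%) and with raloxifene 2 (2.04%). For the 5 compounds in this order, 3, 3, 3, 6 and 6 member probes had an unadjusted limma p under 0.05. The share of all probes under that threshold is not given. The called probes were Cish 39098 for ethinyl estradiol, equilin and tamoxifen, Bcl6 88065 for tamoxifen and raloxifene, and Igf1 for raloxifene. In the mean of the 3 estrogens 2 were called (2.61%), Cish 39098 at -1.80 ± 0.33 and Bcl6 101051 at 0.70 ± 0.17, and in the mean of the 2 SERMs 1 was called (0.574%), Bcl6 88065 at 1.43 ± 0.23. These counts include the contrasts by which the genes were picked, and nothing is read from them. The estrogen shares of all probes include the regularly spaced probes that separated the array sets. With ethinyl estradiol these were 74 of the 295 called probes, and with estradiol benzoate 151 of 172. They were 298 of 906 with equilin and 317 of 640 in the mean of the 3 estrogens. Fitted without them, the shares called were 0.677%, 0, 1.15% and 0.471%. The compounds share the same 4 vehicle arrays, so their changes are set side by side and not counted as repeats. The median change of the member probes was 0.06 with ethinyl estradiol against -0.05 over all tested probes, 0.00 against -0.12 with estradiol benzoate, 0.15 against -0.17 with equilin, 0.17 against -0.03 with tamoxifen and 0.19 against -0.02 with raloxifene. With quantile normalisation the all-probe medians for equilin and estradiol benzoate were -0.01 and 0.00.

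Several of these calls lay near the threshold and were lost when 1 array was left out. The call of Cish 39098 with ethinyl estradiol was lost without vehicle 2, 3 or 4 or any ethinyl estradiol array (change -2.14 to -1.73 over all 20 omissions). The equilin call was lost without vehicle 3, equilin 2 or equilin 3 (-2.57 to -2.10). The tamoxifen call was kept only without estradiol benzoate 1 or 2 or raloxifene 1 or 3, and lost in the other 16 omissions (-2.15 to -1.75). The call of Bcl6 88065 with raloxifene was kept in 4 of 20 omissions (0.96 to 1.36) and that of Igf1 in 7 of 20 (-2.79 to -1.24). Cish 39098 in the mean of the 3 estrogens was called in all 20 omissions (-1.99 to -1.59), but not with the array set block, at -1.25 ± 0.58. Bcl6 101051 in that mean was called in 9 of 20 omissions (0.64 to 0.77), and Bcl6 88065 in the mean of the 2 SERMs in 19, losing its call without vehicle 1 (1.28 to 1.68 over all 20).

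**Figure D4:**
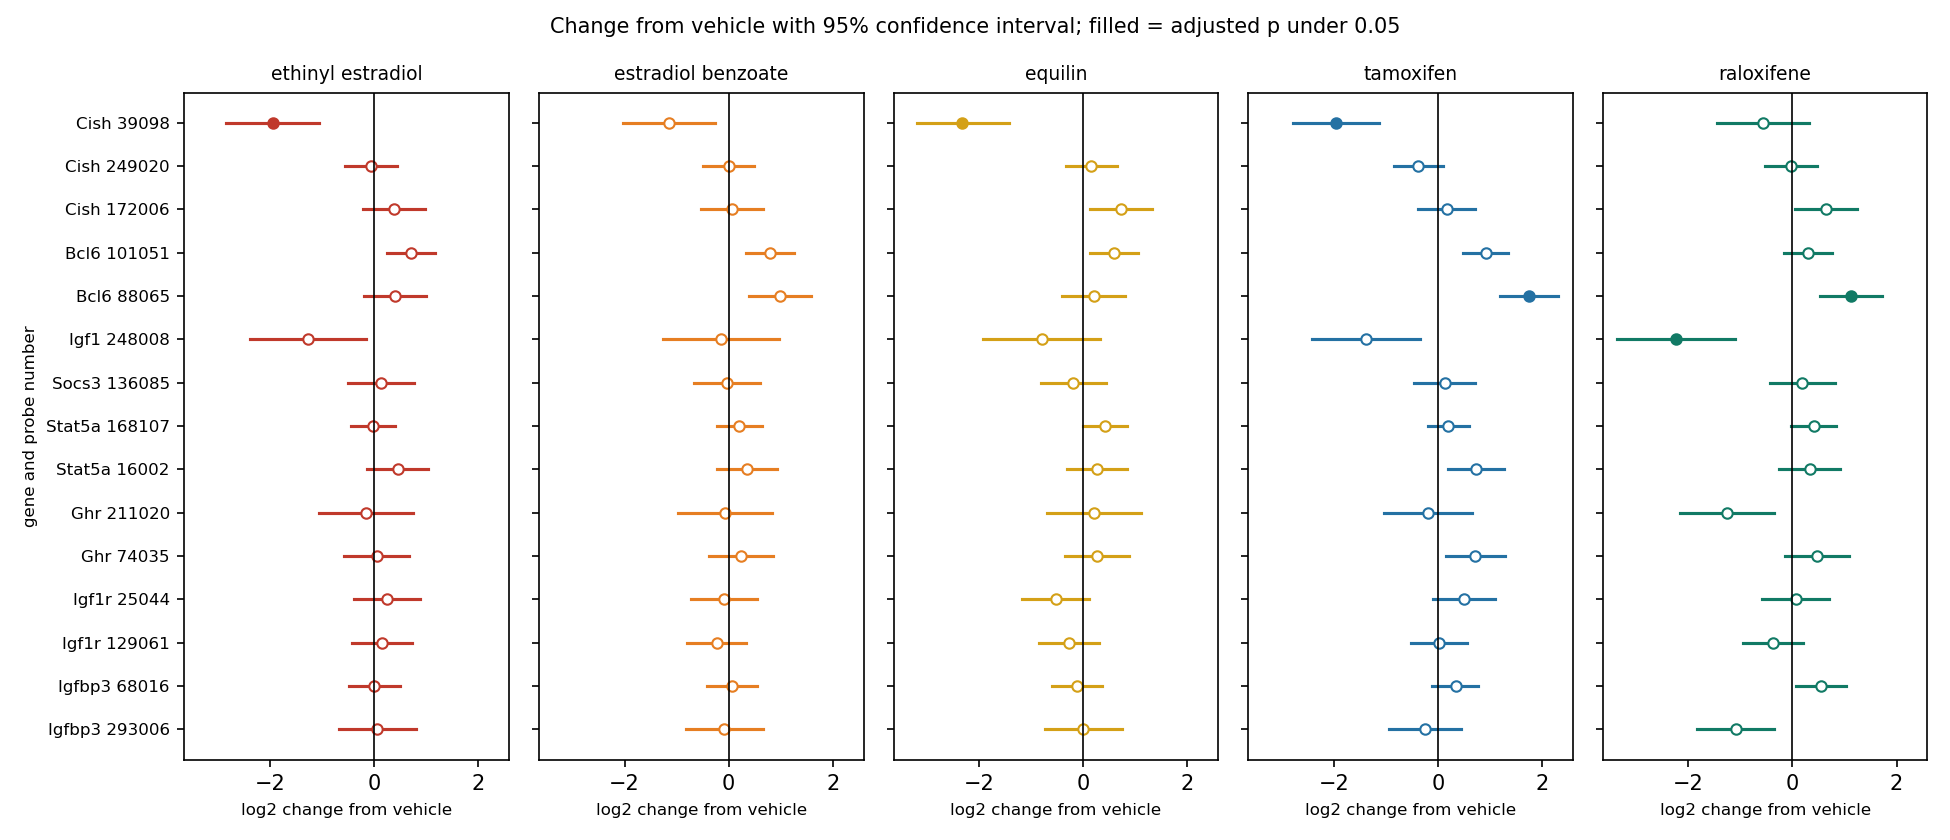
Change from vehicle (log2, with 95% confidence interval) of the tested member probes for each compound; filled points were called. Cish probe 39098 and Igf1 lay to the left of 0 and both Bcl6 probes to the right for all 5 compounds. Cish probe 172006, Stat5a probe 16002 and Ghr probe 74035 also lay to the right of 0 for all 5, with 0 of these 3 called for any. On Stat5a probe 16002 the shared control vehicle 1 was low, at -1.97, with vehicle 2 to 4 at -0.71, -0.49 and -0.78.

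Compounds given at the same dose were then compared with each other, in 4 pairs, over the 15 tested probes, with p-values adjusted over all 24562 probes. Ethinyl estradiol is estradiol with an added ethinyl group, estradiol benzoate is an ester of estradiol, and equilin is an equine estrogen with a further ring double bond. No member probe was called in any pair, where 0.281%, 0.175%, 0 and 0.00407% of all probes were called for ethinyl estradiol against estradiol benzoate, ethinyl estradiol against equilin, equilin against estradiol benzoate and tamoxifen against raloxifene. In the same order, 0, 1, 3 and 5 member probes had an unadjusted limma p under 0.05. The share of all probes under that unadjusted threshold is not given, so nothing is read from these counts. With array weights 3 members were called between ethinyl estradiol and equilin, 5 between equilin and estradiol benzoate and 2 between the SERMs, where that fit called 7.16%, 18.4% and 6.44% of all probes. The intervals below are wide and include sizable differences, so a missed threshold does not show that compounds act alike.

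Between ethinyl estradiol and estradiol benzoate, Igf1 differed by -1.12 (95% interval -2.32 to 0.08, limma adjusted p = 0.592). Cish probe 39098 differed by -0.81 (-1.76 to 0.14, limma adjusted p = 0.638) and Bcl6 probe 88065 by -0.58 (-1.22 to 0.06, limma adjusted p = 0.603). Between equilin and estradiol benzoate, Cish probe 39098 differed by -1.18 (-2.12 to -0.23, limma adjusted p = 0.999), Bcl6 probe 88065 by -0.78 (-1.42 to -0.14, limma adjusted p = 0.999) and Igf1 by -0.65 (-1.85 to 0.55, limma adjusted p = 0.999). In both pairs the mean of the estradiol benzoate rats lay nearer to vehicle for Cish and Igf1 and farther from it for Bcl6. Ethinyl estradiol and equilin lay closer together, with 0.37 for Cish probe 39098 (-0.58 to 1.32, limma adjusted p = 0.837) and -0.47 for Igf1 (-1.67 to 0.73, limma adjusted p = 0.836). Igf1r probe 25044 was 0.78 higher with ethinyl estradiol than with equilin (0.09 to 1.47, limma adjusted p = 0.464), at 1.03, 0.94 and 0.61 against 0.38, -0.20 and 0.05.

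The SERMs differ in structure, tamoxifen being a triphenylethylene and raloxifene a benzothiophene. Cish probe 39098 was lower with tamoxifen than with raloxifene by -1.40 (-2.28 to -0.51, limma adjusted p = 0.352), and by -1.64 without raloxifene 3. Bcl6 was higher with tamoxifen on both probes, by 0.62 on probe 101051 (0.16 to 1.08, limma adjusted p = 0.370) and 0.64 on probe 88065 (0.04 to 1.23, limma adjusted p = 0.370). Igf1 differed by 0.85 (-0.27 to 1.97, limma adjusted p = 0.428) with all arrays and by -0.14 without raloxifene 3, so its sign rested on that array. Ghr probe 211020 differed by 1.07 (0.16 to 1.98, limma adjusted p = 0.370), or by 0.19 without raloxifene 3, and Igfbp3 probe 293006 by 0.85 (0.10 to 1.59, limma adjusted p = 0.370).

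**Figure D5:**
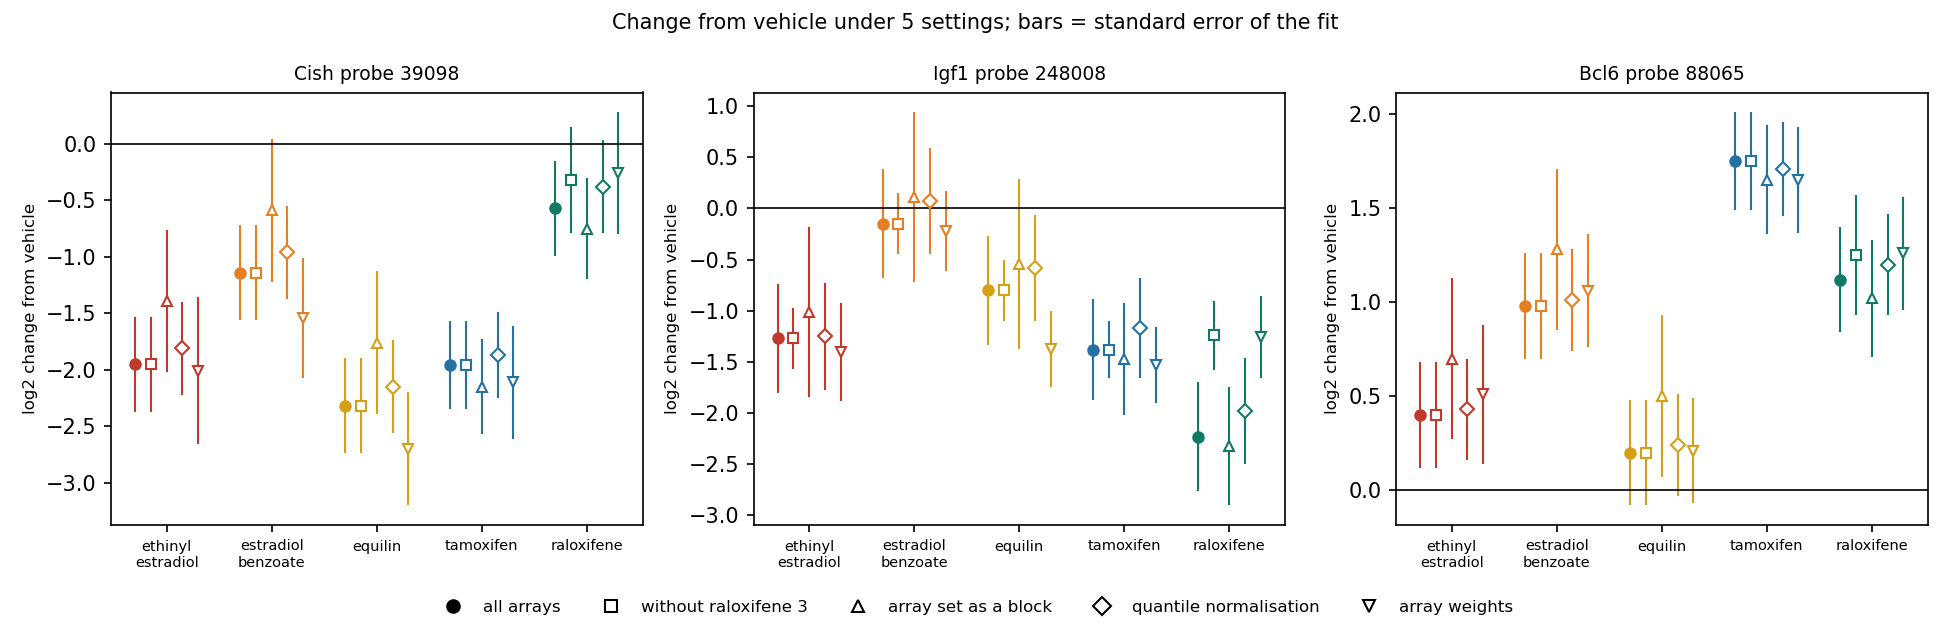
Change from vehicle (log2) of Cish probe 39098, Igf1 and Bcl6 probe 88065 for the 5 compounds with all arrays and under 4 other settings; bars are standard errors. Blocking on the array set, Cish with equilin was -1.76 in place of -2.32 and Igf1 with estradiol benzoate 0.11 in place of -0.15, and without raloxifene 3 Igf1 with raloxifene was -1.24 in place of -2.23.

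Of 19 listed genes of growth hormone receptor signalling, 14 were tested, and 2 were called with equilin (3.69% of all probes), 1 with raloxifene (2.04%) and 0 with each of the other compounds. Sh2b2, an adaptor that binds JAK2, fell by 1.35 ± 0.30 with equilin (limma adjusted p = 0.0191), and Prlr, the prolactin receptor, rose by 1.06 ± 0.27 with equilin (limma adjusted p = 0.0362). Ptpn6, the phosphatase SHP-1 that turns off JAK signalling, fell by 1.04 ± 0.25 with raloxifene (limma adjusted p = 0.0419), or by 0.68 without raloxifene 3, when it was no longer called. Its adjusted p ran from 0.00853 to 0.390 over 32 other settings, that of Sh2b2 from 0.000541 to 0.632, and that of Prlr from 0.0015 to 0.585 over 31. With the array set as a block none of these 3 was called. The list's median change was -0.26, -0.26, -0.35, -0.15 and -0.29 with ethinyl estradiol, estradiol benzoate, equilin, tamoxifen and raloxifene, each below the all-probe medians of -0.05, -0.12, -0.17, -0.03 and -0.02.

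Of 12 SOCS and STAT family genes 7 were tested, and of 12 STAT5 target genes 7, and 0 of either list was called in any comparison by limma; with 0 to 3.69% of all probes called per comparison, a count of 0 among 7 is what that share gives. The STAT5 target list had medians of 0.08, -0.09, -0.17, 0.00 and 0.29 for the 5 compounds in the same order. Of 24 IGF and IGF binding protein genes, 18 were tested. Igfbp2, a carrier of IGF1, fell by 1.48 ± 0.36 with equilin (limma adjusted p = 0.0273; 0.00221 to 0.819 over 32 other settings). Igfbp5, another carrier, fell by 0.92 ± 0.19 with ethinyl estradiol (limma adjusted p = 0.0301; 0.00457 to 0.590), but its other probe was at -0.10. Neither was called with the array set as a block. The list's medians were -0.02, -0.05, -0.06, -0.15 and -0.28.

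Of 14 genes of stress, the immediate early response and glucocorticoid action, 13 were tested. With equilin their median change was -0.67 against -0.17 over all probes, and Dusp1, a phosphatase induced early by stress, fell by 1.13 ± 0.28 (limma adjusted p = 0.0320; 0.00715 to 0.159 over 32 other settings), and lost its call in 9 of the 32. Among these were quantile normalisation (-0.81) and leaving out vehicle 1 (-0.87), vehicle 4 (-1.11), equilin 1 (-1.19), equilin 2 (-1.14) or equilin 3 (-1.06). With the array set as a block it was at -1.91 and was called. The other compounds had list medians of -0.04 to 0.12. Fkbp5, a glucocorticoid-induced co-chaperone of steroid receptors, was higher with ethinyl estradiol than with estradiol benzoate by 1.83 ± 0.31 (limma adjusted p = 0.0145; 0.00294 to 0.109 over 32 other settings). The part of these genes in the values of Cish was not tested.

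The probes whose pattern over the 20 arrays was most like each member were found by Pearson correlation, given as a description. For Cish probe 39098 these were Tnc (0.82), Fndc5 (0.80) and Masp1 (0.76), unchanged without raloxifene 3. For probe 249020 they were Lat2 (0.82), Celsr2 (0.80) and Lima1 (0.78), and for probe 172006 Rab9b (0.87), Cngb1 (0.86) and MGC93861 (0.86), so that no gene was shared by the 3 Cish probes. For Igf1 they were Pcolce (0.94), Arhgef19 (0.92) and Ccdc80 (0.91), or 0.90, 0.82 and 0.79 without raloxifene 3. For Bcl6 probe 101051 they were Clvs2 (0.65), Gbp5 (0.65) and Dusp9 (0.61).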

How the data were processed

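CodeLink whole-genome arrays in 1 colour measured mesenteric artery RNA of 20 rats. The deposited values are linear intensities, background-subtracted and scaled per array as the values show; a scanner GenePix 4000B, GenePix Pro 5.0, CodeLink Expression Analysis, Acuity 3.1 and GeneSpring 7.1 are named in the series' design text and the submitters' processing notes, and the sources used here do not say which of them made the values. Intensities at or below 0 were set to 0, the offset of 0.103 (0.1 times the median of 1.03) was added, and log2 values were centred on each array's median. The offset understates changes of dim genes. Of 35129 probes, 40 with over 1 missing value in some group and the dimmest 30% (mean below -1.43) were left out. Of all probes, 16865 have 1 symbol, 165 several and 18099 none; 16836 matched an Entrez identifier and 1 symbol was updated.

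limma 3.58.1 in R 4.3.3 fitted 6 group means over all 20 arrays with an intensity trend in the variance, and 11 contrasts were taken. The number of arrays limits the precision. On simulated data for ethinyl estradiol against vehicle, 22 of 50 probes changed by 1 (log2) and 48 of 50 changed by 2 were recovered, with 8 false calls among 24362. The simulated probes varied independently, without array sets or an outlying array, so these numbers need not hold for the real arrays.

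The members, gene lists and tests were chosen with earlier results of these data known. All member probes were named; of pathway lists, genes with a call (at most 4 per list and comparison); of stress and cell marker lists, counts, ranges and the largest change; and for each tested Cish probe, Igf1 and Bcl6's brightest probe, the 3 most correlated probes with 1 symbol. Genes in a list were read on their brightest complete probe. Dusp1 and Fkbp5 are the largest changes called in the stress list, and Col1a1 that of the fibroblast list. Alternatives were quantile normalisation, no centring, other offsets and filters, no variance trend, array weights, blocks for array set and replicate number, leaving out the regularly spaced probes, only the groups compared, and leaving out each array. Promoters are RefSeq's for GRCr8. The labels' protocols and the design text give different RNA amounts, and the latter gives fewer arrays for some groups than the labels list.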

Additional observations from a re-analysis of the deposited data

Results flagged for a closer look

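Igfbp3 probe 293006 in vehicle 4 was at 3.40, far from the other vehicle arrays at 4.70 to 4.76; the gap was 0.954 of the group's range. Of the 30 groups of 4 arrays checked, 1 stood out in this way, and chance alone marks about 1 in 20. On the other Igfbp3 probe, 68016, vehicle 4 was the lowest vehicle array at 3.81. Without vehicle 4, the raloxifene change of probe 293006 was -1.42 ± 0.31 and was called, in place of -1.09 ± 0.35. Groups of 3 arrays were not checked.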

How the results depend on the processing

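Over 38 results and 32 other settings, 1210 of 1215 values kept their direction, 167 lost a call and 10 gained one. Many of these directions could not change. Leaving out an array of a group outside the comparison does not alter the change itself. Nor does another filter, no variance trend or a fit of only the groups compared. The count of kept directions is therefore no measure of stability. The values that changed sign were Igf1 with estradiol benzoate (0.07 with quantile normalisation, 0.11 with the array set as a block), Bcl6 88065 with equilin (-0.03 without equilin 1; -0.03 to 0.44 over all omissions of 1 array) and Igf1 between tamoxifen and raloxifene (-0.27 with array weights, -0.14 without raloxifene 3; -0.14 to 1.41 over all omissions); the cause was not tested. Of 15 member probes, the number called became 0 for ethinyl estradiol with array weights, a replicate block or only the groups compared, which called 2.06%, 0.252% and 0.0366% of all probes. For equilin it became 4 with array weights (30.8% of all probes) and 0 with the array set block (0.647%). For tamoxifen it became 4 with array weights (1.83%) and 1 with quantile normalisation, the replicate block, the array set block or only the groups compared (0.106% to 0.199%). For raloxifene it became 1 with quantile normalisation, the smaller offset, no variance trend, array weights or the replicate block (1.78% to 4.2%), and 0 with no filter, the array set block or only the groups compared (0 to 0.316%). For the mean of the 3 estrogens it became 1 with array weights, the array set block or without the regularly spaced probes (6.68%, 0.68% and 0.471%), and for the mean of the 2 SERMs 0 with the array set block or only the groups compared (0.134% and 0.0489%). With array weights it became 3, 5 and 2 for ethinyl estradiol against equilin, equilin against estradiol benzoate and tamoxifen against raloxifene (7.16%, 18.4% and 6.44%). Leaving out each array gave 0 to 2 for ethinyl estradiol, 0 for estradiol benzoate, 0 to 2 for equilin, 1 to 4 for tamoxifen, 0 to 4 for raloxifene, 1 to 2 for the estrogens, 0 to 2 for the SERMs and 0 for each pair of compounds. The array set block leaves 1 control array for the estrogens, which is assumed to vary like the others. Of 46 pairs of arrays with the same replicate number, deviations from the group means correlated at -0.43 to 0.30, and 9 pairs were over 0.1. No values for arrays with different numbers are given for reference, so whether the numbers pair the rats was not settled.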
